A study of Mus musculus with 12 samples.

Results

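Assembly of the RNA of enteric glia gave many loci that carry the name of a known gene but contain none of its annotated transcripts, and 9683 such loci are described here. They were chosen from 99547 loci as those with a gene name, without an Ensembl transcript, and with at least 1 FPKM (fragments scaled to transcript length and to library size) in at least 3 of 12 libraries. Because the FPKM values themselves set that limit, the levels of the members are given as a description. Of all 51585 named loci without a transcript, 18.8% reached the limit, against 52.3% of 24432 annotated loci and 7.60% of 23530 loci with no name. The loci closest to the limit were those named Entpd3 and Supv3l1 on the inside, where the third highest library was at 1.00 FPKM, as in 96 members, and Tenm1 and Nhs on the outside at 0.99.

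The study isolated ribosome-bound RNA from C57BL/6 mice of the genotype Sox10::CreERT2+/- / Rpl22tm1.1Psam/J, in which tamoxifen (400 mg/kg chow for 2 weeks, then 1 week of normal chow) lets Cre in Sox10-expressing cells switch on a tagged ribosomal protein, Rpl22. Tissue was myenteric plexus of the distal colon, the nerve layer between the muscle coats, taken 48 h after an enema of 0.1 mL. The enema held saline or 5 mg DNBS, a hapten that causes colitis, in 50% ethanol. No ethanol is listed for the saline enema, so effects of DNBS and of ethanol cannot be told apart. Mice also received daily injections over 3 days, from 24 h before the enema, of 0.1% DMSO (vehicle) or of 0.5 mg/kg GR159897, which blocks NK2R, the tachykinin receptor encoded by Tacr2. The 4 groups of 3 libraries were Saline_Vehicle, DNBS_Vehicle, Saline_GR159897 and DNBS_GR159897. Sex was uneven, with 2 females and 1 male in DNBS_GR159897 and 1 female and 2 males in each other group.

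As background, a transcript assembler builds a locus wherever reads overlap, inside or outside known exons. Loci outside listed exons are known to arise from introns of precursor RNA, from exons that no catalogue lists and from repeated sequences that lie in several places. Ribosome pulldown enriches spliced cytoplasmic RNA of the tagged cells, since ribosomes translate mature messages. A locus carries a gene's name here only as the table gives it, and the table holds no coordinates, so the positions below are those of the gene in GENCODE M21 (GRCm38) and the part of the gene that a locus covers was not determined.

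DNBS_GR159897 replicate 1 stood apart before any member was looked at. Its annotated marker genes of enteric glia summed to 27.0 FPKM, against 352 to 2021 FPKM in the other 11 libraries, and its epithelial markers to 2475 FPKM, against 1.52 to 119. In it the glial marker S100b was at 1.17 FPKM, against 94.0 to 288 FPKM elsewhere. Smooth muscle markers summed to 456 FPKM in that library and to 3392 to 10306 FPKM elsewhere, so muscle RNA was present in every library. The depth of the libraries is unknown, and fewer cells of a type cannot be told apart from less RNA per cell.

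The member of second highest mean level is named for Gm23935, a short noncoding gene of GENCODE type miRNA at chr16:11144125-11144181 on the plus strand, inside Zc3h7a, which lies on the other strand. Its sequence is shown because the same letters recur at other genes of the genome, so that reads of it need not come from one place. Bases that differ from Gm23935 are in capitals, and the lines run 5′ to 3′ as GENCODE gives the transcripts.
Gm23935: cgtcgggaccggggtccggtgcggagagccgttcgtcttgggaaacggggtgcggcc
Gm24187: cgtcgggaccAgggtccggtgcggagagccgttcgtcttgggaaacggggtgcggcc
Gm23388: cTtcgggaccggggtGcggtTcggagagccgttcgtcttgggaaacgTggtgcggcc
The 57 bases of Gm23935 are repeated without any change in Gm24245 (chr4:139338304-139338360, plus strand) and in Gm24270 (chr9:56223715-56223771, minus strand, inside Peak1). Gm24187 (chr13:9834469-9834525, minus strand) differs by G11A, and Gm23388 (chr8:85112012-85112068, minus strand, inside Zfp791) by G2T, C16G, G21T and G48T, with positions counted from 1 at the 5′ end. These were found by a search of 141767 GENCODE transcripts for shared windows of 20 bases. The table gives nearly all of the level to 1 of the copies: the locus named Gm23935 had a mean of 6672 FPKM, while Gm24270 had a mean of 0.219 FPKM and at most 2.63, and no locus carried the names Gm24245, Gm24187 or Gm23388.

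The members were many, small in level and gathered in long genes. They carried 4190 different names, 97.1% consisted of 1 assembled transcript, and 91.7% were named for a protein-coding gene. The median of their mean levels was 0.993 FPKM. Only 94 had a mean above 10 FPKM, 12 above 100 and 5 above 1000. The share that reached 1 FPKM in exactly 3 libraries, the least the rule allows, was 42.4% (4103 loci), and 75 loci reached it in all 12. Of the members, 1705 (17.6%) reached 1 FPKM in DNBS libraries alone and 115 (1.19%) in saline libraries alone. The same counts were not made over all loci, so they are not read as a trait of the members. Unnamed loci at 1 FPKM or more were also most numerous in DNBS_GR159897 replicate 1 (6642) and fewest in Saline_GR159897 replicate 1 (359). Loci that reached 1 FPKM in 1 group alone passed the rule only through the group where they were high.

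The number of members grew with the length of the gene they were named for. The median gene span was 29.7 kb for 2672 names with 1 member, 59.7 kb for names with 2 to 4, 122 kb for names with 5 to 9 and 346 kb for the 149 names with 10 or more, which together held 2463 members. Annotated loci past the limit whose name had no member had a median span of 15.3 kb. The locus numbers of the table follow the chromosomes roughly. Of annotated loci with neighbouring numbers, 99.9% lay on the same chromosome, and 88.2% of those neighbours were in rising position. By these numbers, 54.0% of members stood within 5 places, and 92.8% within 50, of the annotated locus of their own name.

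The names with the most members were Slc24a3 (61 loci), a sodium, calcium and potassium exchanger, Pde4d (54), which breaks down cyclic AMP, Fam155a (41), a subunit of the NALCN sodium leak channel, Auts2 (37), Zbtb20 (37), a transcription factor, and Lpp (36), a protein of focal adhesions. Their genes span 474, 1504, 565, 1106, 767 and 599 kb. The Slc24a3 members summed to 51.0, 90.8 and 26.1 FPKM in Saline_Vehicle, 68.4, 47.1 and 45.1 in DNBS_Vehicle, 7.08, 129 and 107 in Saline_GR159897, and 48.6, 212 and 112 in DNBS_GR159897. The annotated Slc24a3 locus stayed between 0.03 and 6.14 FPKM in the same 12 libraries, below the sum of its members in each. That sets a sum over 61 loci against 1 locus, so it does not show single members above the annotated locus. The Lpp members summed to 31.6 to 86.1 FPKM in Saline_Vehicle, 143 to 217 in DNBS_Vehicle, 6.97 to 210 in Saline_GR159897 and 173 to 716 in DNBS_GR159897. For both genes Saline_GR159897 replicate 1 was the lowest library and DNBS_GR159897 replicate 2 the highest.

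The first comparison asked what share of each library's summed FPKM fell on named loci without a transcript, and it used all 51585 of them, with no limit on level. The share was 8.28, 12.7 and 5.54% in Saline_Vehicle, 17.7, 36.1 and 11.5% in DNBS_Vehicle, 3.62, 19.5 and 17.0% in Saline_GR159897, and 61.2, 34.0 and 26.8% in DNBS_GR159897. The DNBS_GR159897 libraries were all above every saline library, while DNBS_Vehicle overlapped both saline groups. Group means were 8.84 ± 3.61%, 21.8 ± 12.8%, 13.4 ± 8.54% and 40.6 ± 18.2% (SD, n = 3).

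Over both drug arms the share was 31.2 ± 17.4% with DNBS and 11.1 ± 6.37% with saline (SD, n = 6), a difference of 20.1 percentage points. An exact two-sided permutation test within the arms gave p = 0.01 (400 arrangements, smallest possible 0.005), and p = 0.07 after Benjamini-Hochberg adjustment over 7 permutation tests, so the difference did not pass the threshold of 0.05 once adjusted. Without DNBS_GR159897 replicate 1 it was 14.97 points, unadjusted p = 0.015 in the same exact test. Between GR159897 and vehicle the share differed by 11.7 points (exact permutation p = 0.13, adjusted 0.303), and by 6.55 points without that library. Single pairs of groups, 3 against 3, cannot go below p = 0.1 in an exact permutation test. DNBS_Vehicle exceeded Saline_Vehicle by 13.0 points (p = 0.2, exact), by 5.78 points without DNBS_Vehicle replicate 2 (p = 0.3, exact) and by 3.73 points without the 10 highest loci of the table (p = 0.2, exact). DNBS_GR159897 exceeded Saline_GR159897 by 27.3 points (p = 0.1, exact), and by 16.98 points without DNBS_GR159897 replicate 1 (p = 0.1, exact).

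Loci with no name moved alongside the named ones. They held 1.27% of summed FPKM in Saline_GR159897 replicate 1 and 16.2% in DNBS_GR159897 replicate 1, the libraries with the lowest and the highest share on named loci. The log2 ratio of the named sum to the unnamed sum differed between DNBS and saline by -0.017 (exact permutation p = 0.86). Annotated loci made up the rest, from 95.1% down to 22.6% in the same libraries.

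**Figure D1:**
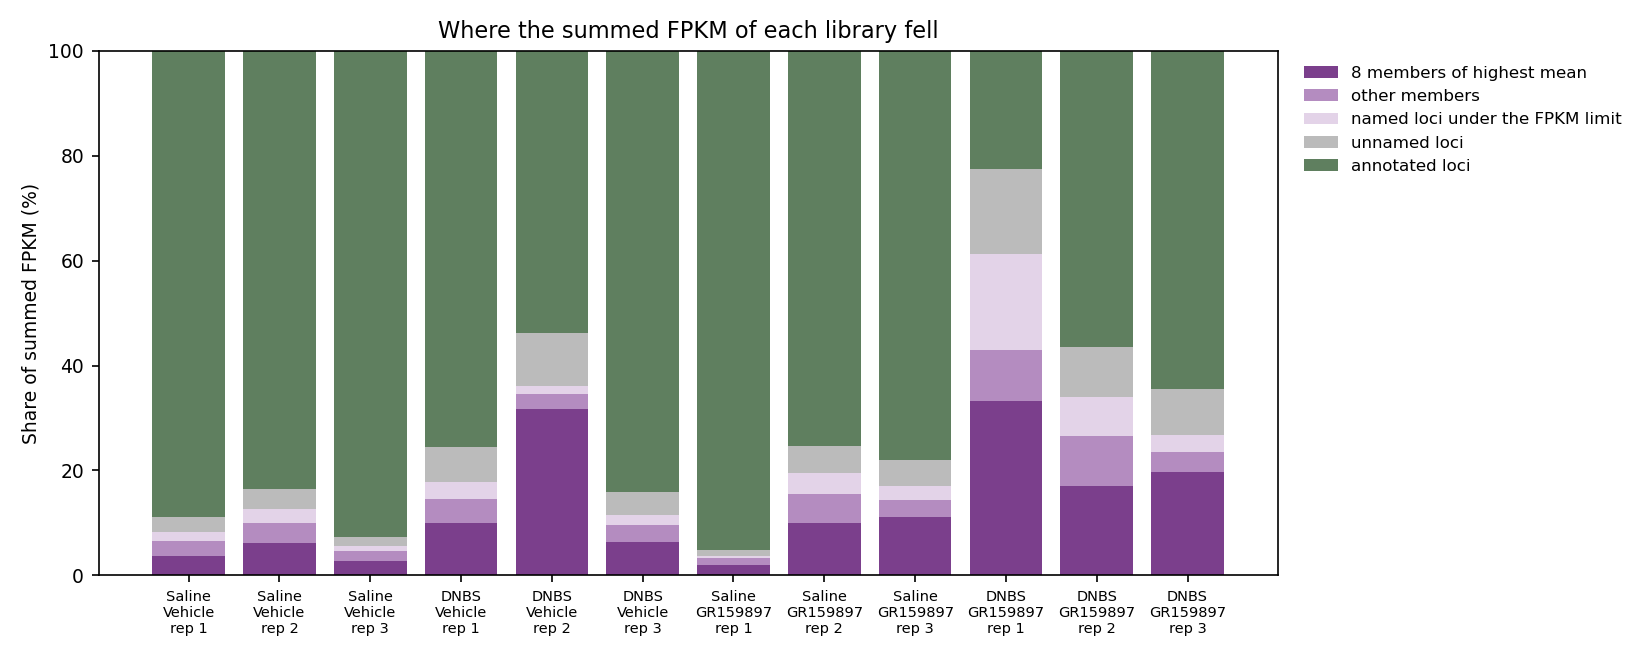
Share of summed FPKM (%, vertical axis) in each of the 12 libraries, split into the 8 members of highest mean level, the other members, named loci under the FPKM limit, unnamed loci and annotated loci. The share of all named loci without a transcript, the sum of the lowest 3 segments, ran from 3.62% in Saline_GR159897 replicate 1 to 61.2% in DNBS_GR159897 replicate 1.

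Much of that share came from 8 loci. They took 56.8 to 91.7% of the members' summed FPKM, and 2.04 to 33.3% of all summed FPKM of a library. The highest was a locus named for Cmss1 (MSTRG.38639; gene at chr16:57302000-57606864, minus strand), which encodes a homolog of a yeast protein of the small ribosomal subunit. The locus stood at 5254, 8325 and 3718 FPKM in Saline_Vehicle, 17599, 70346 and 10744 in DNBS_Vehicle, 2885, 15207 and 20448 in Saline_GR159897, and 99453, 29294 and 43924 in DNBS_GR159897. DNBS_Vehicle lay wholly above Saline_Vehicle and DNBS_GR159897 wholly above Saline_GR159897. The annotated locus that holds Cmss1, merged with Filip1l, was at 1.33 to 5.44 FPKM.

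The other 7 were named for Gm23935 (mean 6672 FPKM), Gphn (5990), the gephyrin scaffold of inhibitory synapses, Sspn (5823), sarcospan of the dystrophin complex, Jarid2 (1738), a partner of Polycomb repressive complexes, Camk1d (855), a calcium-dependent kinase, Il31ra (453), a receptor subunit for interleukin 31, and Arhgap21 (325), a GTPase-activating protein. In each of the 8 the lowest library was Saline_GR159897 replicate 1. The highest was DNBS_GR159897 replicate 1 in 6 of them, DNBS_Vehicle replicate 2 for Gphn and DNBS_GR159897 replicate 3 for Il31ra. The highest library was 19.7 to 34.5 times the lowest.

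These loci varied less relative to Cmss1 than in level. Relative to Cmss1 in the same library, the Sspn locus was at 18.3 to 29.7%, Gphn at 15.5 to 31.8%, Gm23935 at 18.5 to 41.7%, Jarid2 at 5.76 to 8.75% and Arhgap21 at 1.02 to 1.69%. Camk1d, at 1.82 to 4.74%, and Il31ra, at 0.449 to 3.07%, varied more. On log2(FPKM + 1) over the 12 libraries Pearson's r with Cmss1 was 0.998 for Sspn, 0.996 for Jarid2, 0.994 for Arhgap21, 0.979 for Gphn, 0.974 for Gm23935, 0.960 for Camk1d and 0.897 for Il31ra. These r values are descriptions, since all loci of a library share its depth and scaling. Of all loci past the limit, 10 named, 5 unnamed and 2 annotated loci had r above 0.95. The annotated ones were Gm15564, at 4.32 to 103 FPKM, and Sec24a, at 0.25 to 1.75 FPKM. Low-level members were among the named ones, with means of 39.3 FPKM for Gm26561, 6.68 for Kcnip1, 3.92 for Alcam and 1.57 for Adamts3. Gm15564 and Gm23935 belong to a mixed list of 11 gene names. Some are tied to ribosomal RNA repeats, while Rn7sk, Rn7s1, Rn7s2 and Rmrp are other noncoding RNAs and Lars2 is a protein-coding gene. Annotated loci of the list summed to 38.4 to 147 FPKM in Saline_Vehicle, 322 to 609 in DNBS_Vehicle, 5.13 to 444 in Saline_GR159897 and 1556 to 3842 in DNBS_GR159897. Because the list is mixed, these sums do not measure ribosomal RNA. The part of ribosomal RNA in the 8 loci was not tested.

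**Figure D2:**
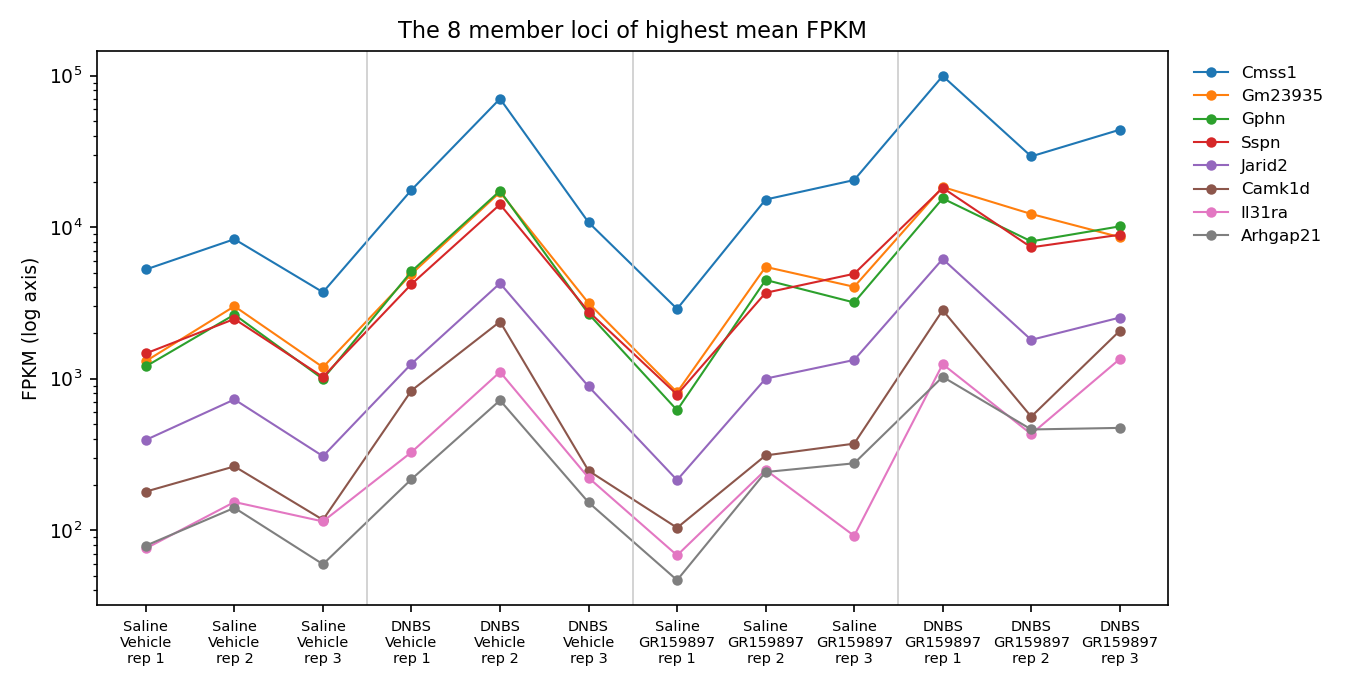
FPKM (vertical log axis) of the 8 members of highest mean level in each library, with 1 colour per locus and lines joining values of the same locus. All curves have their trough at Saline_GR159897 replicate 1, where Cmss1 was at 2885 FPKM. In 6 of them the peak is at DNBS_GR159897 replicate 1, while Gphn peaks at DNBS_Vehicle replicate 2 and Il31ra, which departs most from Cmss1, at DNBS_GR159897 replicate 3.

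Beside the 8 loci, the number of members detected also varied, and only partly in step with them. Saline_GR159897 replicate 1, Saline_Vehicle replicate 3 and Saline_Vehicle replicate 1 were the lowest libraries in both, in that order. Members at 1 FPKM or more numbered 2077, 3597 and 1283 in Saline_Vehicle, 4620, 2500 and 3208 in DNBS_Vehicle, 391, 5321 and 3142 in Saline_GR159897, and 6028, 7616 and 3501 in DNBS_GR159897. Annotated loci at 1 FPKM or more numbered 10329 to 11165 in the same libraries. DNBS_Vehicle replicate 2 put 31.7% of its FPKM on the 8 loci but only 2.85% on all other members, whereas DNBS_GR159897 replicate 2 put 17.1% on the 8 and 9.39% on the others. Of the 9683 members, 34.6% had their highest value in DNBS_GR159897 replicate 1 and 22.9% in DNBS_GR159897 replicate 2. With the 8 loci taken out of numerator and denominator, an alternative added after the data were seen, the DNBS difference in share was 9.70 points (unadjusted exact permutation p = 0.045).

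**Figure D3:**
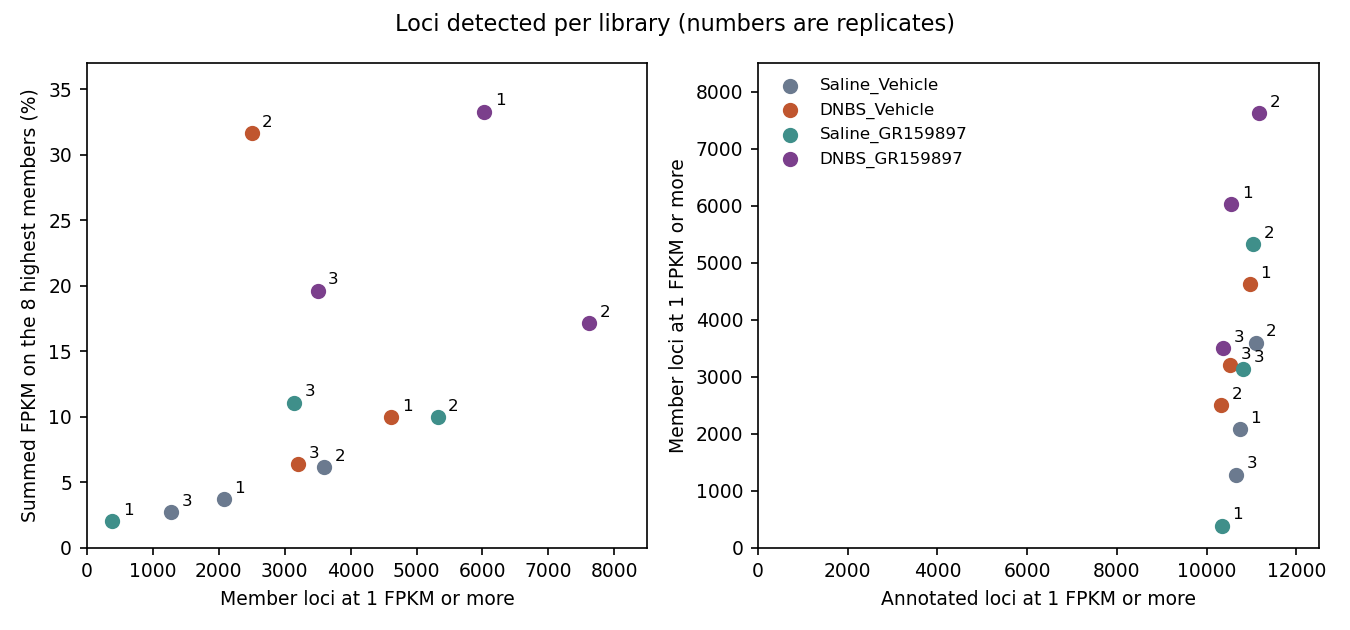
Left, share of summed FPKM on the 8 highest members (%) against the number of members at 1 FPKM or more, and right, that number against the number of annotated loci at 1 FPKM or more, with 1 point per library coloured by group and numbered by replicate. Members detected ran from 391 to 7616, while annotated loci stayed between 10329 and 11165.

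The next comparison asked which single members differed with DNBS, averaged over both drug arms. In a linear model over all 24255 loci past the limit (limma, log2(FPKM + 1), threshold 0.05 on adjusted p), 276 members passed, 260 higher and 16 lower. That is 2.85% of members, against 4.56% of all loci tested (1106 of 24255; 2.29% higher and 2.27% lower). Of the 260, 145 reached 1 FPKM in DNBS libraries alone and so passed the limit through the groups where they were high. The median change was 0.49 over the members and 0.15 over all loci, and the limit on level favours high values in any group. Scaling to equal FPKM sums gave 243 members higher and 42 lower (474 and 1441 over all loci), and scaling to equal medians 354 and 8 (792 and 352 over all loci). Without Saline_GR159897 replicate 1, 48 members passed, without Saline_Vehicle replicate 3 38, and with a sex term 133. Without DNBS_GR159897 replicate 1 the count was 309.

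Calls were followed through up to 21 alternatives for 22 members, those of largest change, highest level or highest ratio to the annotated locus and those on a gene list, and 6 of the 22 kept their call under all 21. The locus named Pold3 (MSTRG.87447), an accessory subunit of DNA polymerase delta, was at 0.15, 0.05 and 0 FPKM in Saline_Vehicle, 9.35, 14.1 and 14.2 in DNBS_Vehicle, 0.01, 0.26 and 0.34 in Saline_GR159897, and 4.39, 44.3 and 10.4 in DNBS_GR159897. Every DNBS library was above every saline library, and the change was 3.60 ± 0.42 (log2, SE, limma adjusted p = 0.00121). No saline library reached 1 FPKM at this locus, so it passed the limit through the groups where it was high. The annotated Pold3 locus lay between 3.12 and 6.51 FPKM throughout. The gene is at chr7:100082111-100121565, minus strand.

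The locus named Sugct (MSTRG.24488; gene at chr13:16857472-17695553, minus strand), a mitochondrial transferase of glutarate breakdown, was listed at 0 in 5 of 6 saline libraries and at 0.71 FPKM in the other. Its 3 DNBS_Vehicle libraries held 13.1, 17.2 and 3.98 FPKM and its DNBS_GR159897 libraries 8.74, 8.82 and 3.60 (change 3.05 ± 0.36, adjusted p = 0.00127). The locus named Il21r (MSTRG.88645; chr7:125603429-125633570, plus strand), the receptor of the lymphocyte cytokine interleukin 21, was listed at 0 in 5 saline libraries and at 2.34 FPKM in Saline_GR159897 replicate 3. The DNBS_Vehicle libraries held 9.09, 4.56 and 13.3 FPKM and the DNBS_GR159897 libraries 9.38, 11.2 and 4.33 (2.88 ± 0.38, adjusted p = 0.00204). For Sugct and Il21r too, no saline library reached any DNBS library. The Sugct locus reached 1 FPKM in DNBS libraries alone and so passed the limit through the groups where it was high. Lymphocyte markers summed to at most 5.62 FPKM outside DNBS_GR159897 replicate 1, where they summed to 99.3, and the annotated Il21r locus was at 0.72 FPKM or less in every library.

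The locus named 2010111I01Rik (MSTRG.26272; chr13:62964893-63326096, plus strand) was at 1.22 FPKM or less in the 6 saline libraries. The DNBS_Vehicle libraries had 9.93, 2.46 and 18.9 FPKM, and the DNBS_GR159897 libraries 15.4, 10.8 and 15.7. Its change was 3.07 ± 0.39 (adjusted p = 0.00163). Ciapin1 (MSTRG.93591; chr8:94819804-94838358, minus strand), a factor of cytosolic iron-sulfur cluster assembly, named a locus at 0.38 FPKM or less with saline. With DNBS it stood at 13.5, 7.09 and 7.43 FPKM in DNBS_Vehicle and 20.8, 6.78 and 1.44 in DNBS_GR159897 (2.87 ± 0.43, adjusted p = 0.00438). Neither locus had a saline library as high as its lowest DNBS library. The Ciapin1 locus reached 1 FPKM in DNBS libraries alone and so passed the limit through the groups where it was high.

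The sixth, named jointly for the pseudogene Gm18734 and for H2-D1 (MSTRG.41720), a class I antigen-presenting molecule, fell. It was at 141, 172 and 12.3 FPKM in Saline_Vehicle, 1.31, 0.75 and 1.32 in DNBS_Vehicle, 62.4, 1.86 and 43.2 in Saline_GR159897, and 0, 1.69 and 1.17 in DNBS_GR159897. The change was -4.25 ± 0.76 (adjusted p = 0.0101), and no DNBS library reached a saline library. Class I genes are a family of close copies, so reads of H2-D1 may be shared among them.

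**Figure D4:**
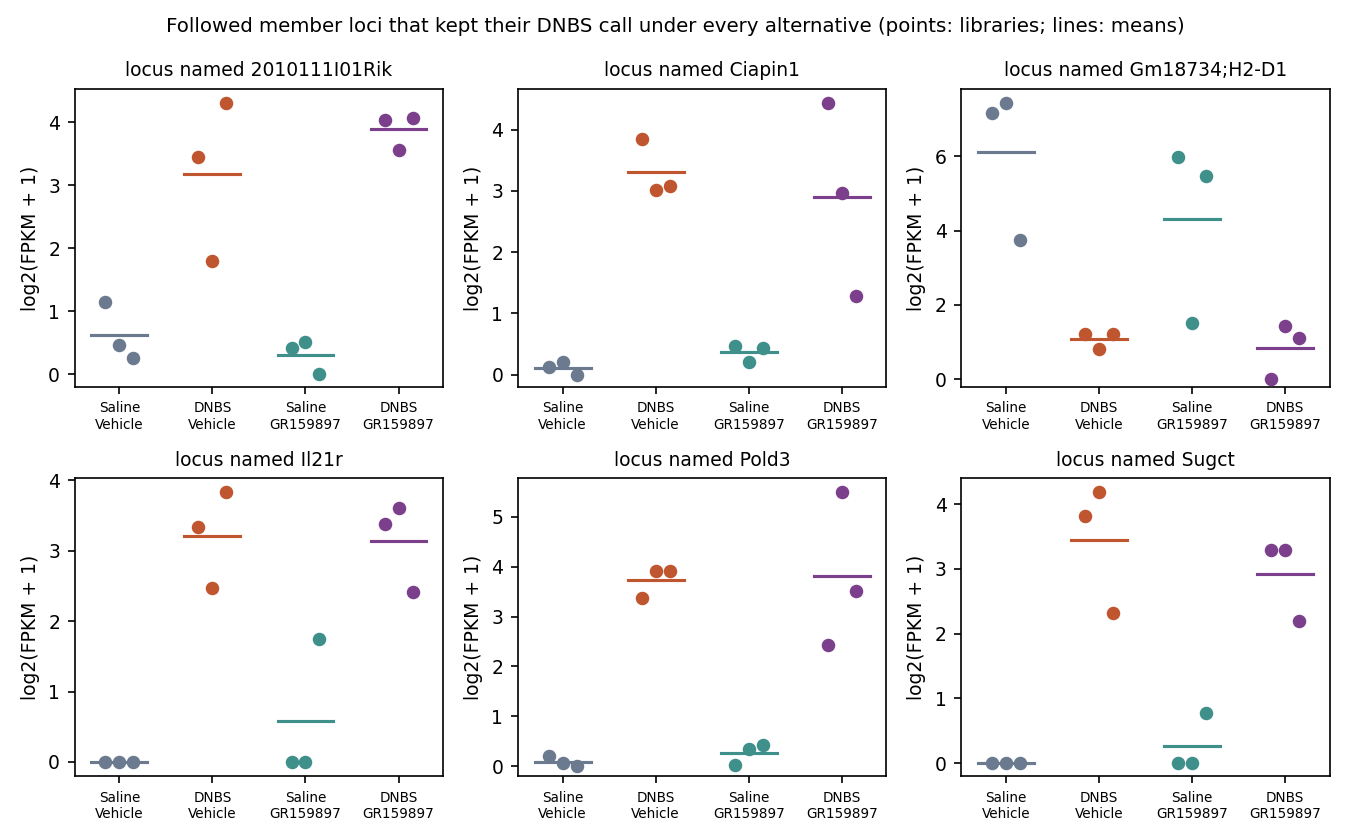
log2(FPKM + 1) of 6 members, those of the 22 followed through the alternatives that kept their call for DNBS over both drug arms under all 21, with 1 point per library and a line at each group's mean. The loci named 2010111I01Rik, Ciapin1, Il21r, Pold3 and Sugct are higher in all 6 DNBS libraries than in any saline library, and the locus named for Gm18734 and H2-D1 is lower. Those named Ciapin1, Pold3 and Sugct reached 1 FPKM in DNBS libraries alone.

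The largest fall was at a locus named Apoe (MSTRG.83804; chr7:19696109-19699188, minus strand), the lipid carrier made by glia and macrophages. It was at 83.7, 39.1 and 157 FPKM in Saline_Vehicle, 123, 1.15 and 1.02 in DNBS_Vehicle, 629, 184 and 41.9 in Saline_GR159897, and 0, 0.36 and 2.00 in DNBS_GR159897. DNBS_Vehicle replicate 1 thus lay among the saline libraries, and the change was -5.03 ± 0.94 (adjusted p = 0.0129). Its call was lost in 1 of 21 alternatives. The annotated Apoe locus was at 3057 to 7694 FPKM with saline and at 15.5 to 4598 with DNBS, with the lowest value in DNBS_GR159897 replicate 1, and the change in the ratio of the locus to it was -3.01 ± 1.11 (adjusted p = 0.126). The locus named Cst3, cystatin C, an inhibitor of cysteine proteases, fell by 2.52 (SE 0.64, adjusted p = 0.0408) and lost its call in 14 of 21 alternatives. The annotated Cst3 locus moved with it, since their ratio changed by 0.18 ± 0.65 (adjusted p = 0.888). A locus named Sgcd, delta-sarcoglycan of the muscle membrane, fell by 1.90 (SE 0.47, adjusted p = 0.0377) from 15.6 to 34.0 FPKM with saline to 0.09 to 12.9 with DNBS, and lost its call in 11 of 21. Smooth muscle markers were lowest in the same DNBS_GR159897 replicate 1, and their part was not tested.

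Of the 8 highest members, Il31ra and Camk1d passed. Il31ra went from 68.2 to 250 FPKM with saline to 222 to 1346 with DNBS (2.45 ± 0.54, adjusted p = 0.0250), with overlap between the groups, and lost its call in 6 of 21 alternatives. Camk1d changed by 2.42 ± 0.63 (adjusted p = 0.0456) and lost its call in 13. Cmss1 changed by 2.25 ± 0.73 and did not pass (adjusted p = 0.0887). Members next in level did not pass either: the locus named Ndufa13, a subunit of respiratory complex I, was at 59.1 FPKM in DNBS_GR159897 replicate 1 and at 229 to 466 elsewhere, and Kcna1, a potassium channel, at 126 to 177 FPKM in Saline_Vehicle, 39.8 to 93.6 in DNBS_Vehicle, 124 to 260 in Saline_GR159897 and 0 to 64.6 in DNBS_GR159897 (change -2.35 ± 0.84, adjusted p = 0.115).

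Within the vehicle arm, DNBS_Vehicle against Saline_Vehicle, 6 members passed, all higher, or 0.0620% of members against 0.227% of all loci (55 of 24255; 0.202% higher and 0.0247% lower). They were named Fam32a, Pold3, Sgca, Sugct, Il21r and 9030624G23Rik. The Sgca locus, named for alpha-sarcoglycan, was listed at 0 in all 3 Saline_Vehicle libraries and at 9.95, 15.5 and 9.70 FPKM in DNBS_Vehicle (adjusted p = 0.0138). Like Pold3 and Sugct, it reached 1 FPKM in DNBS libraries alone. The Fam32a locus rose from 0.45, 0 and 0 FPKM to 57.5, 16.9 and 42.2 (4.98 ± 0.92, adjusted p = 0.0427). It was at 3.44, 0 and 23.2 FPKM in DNBS_GR159897, where the groups of the GR159897 arm overlapped. Each of the 6 lost its call in some alternatives: 0 members passed without any 1 of the Saline_Vehicle libraries or without DNBS_Vehicle replicate 1, 2 without DNBS_Vehicle replicate 2, 3 without DNBS_Vehicle replicate 3, and 15 without DNBS_GR159897 replicate 1.

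Within the GR159897 arm, DNBS_GR159897 against Saline_GR159897, 363 members passed, 358 higher and 5 lower, or 3.75% of members against 2.73% of all loci (662 of 24255; 1.89% higher and 0.837% lower). Of the 358, 140 reached 1 FPKM in DNBS_GR159897 alone, and 220 had their highest value in DNBS_GR159897 replicate 1. Without that library 161 passed, of which 134 were among the 358 higher ones. Without Saline_GR159897 replicate 1 or replicate 3, the count was 1, and without DNBS_GR159897 replicate 3 it was 2042. The count with a sex term was 105, and with only those 2 groups fitted it was 0. Over all loci the calls were 459 higher and 203 lower, and 334 and 434 with equal FPKM sums.

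Named members of this arm included Ms4a4a, a membrane protein of macrophages and mast cells, at 246, 20.9 and 45.9 FPKM in DNBS_GR159897 and 1.08, 4.63 and 0.16 in Saline_GR159897 (4.73 ± 1.04, adjusted p = 0.0349). Others were named for ubiquitin ligases, March7 at 107, 13.2 and 6.53 FPKM against 0, 0.83 and 0 (4.21 ± 0.76, adjusted p = 0.0204), and Fbxw7 at 21.8, 19.0 and 12.6 FPKM against 0, 1.82 and 0 (3.70 ± 0.62, adjusted p = 0.0199). The locus named Psmd14, a subunit of the proteasome, was at 38.7, 23.7 and 6.64 FPKM against 0, 1.33 and 0, and that named Brix1, a factor of ribosome assembly, at 59.9, 13.7 and 3.48 FPKM against 0 in all 3. In each of these 5 the DNBS_GR159897 replicate 1 value was the highest of all 12 libraries. Of the 5, the Brix1 locus reached 1 FPKM in DNBS libraries alone and so passed the limit through the groups where it was high. The members that fell were named Apoe (-6.74 ± 1.33, adjusted p = 0.0258), Gm44806, Angptl6, Gm11223 and Gm13849.

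With DNBS present, DNBS_GR159897 against DNBS_Vehicle, which shares libraries with both comparisons above, 73 members passed, 72 higher and 1 lower. That is 0.754% of members against 0.326% of all loci (79 of 24255; 0.309% higher and 0.0165% lower). Of the 72, 48 reached 1 FPKM in DNBS_GR159897 alone. Among them was a locus named Parva, alpha-parvin of focal adhesions (MSTRG.88011; chr7:112427505-112591692, plus strand), at 8.95, 11.6 and 8.56 FPKM in DNBS_GR159897 and listed at 0 in the other 9 libraries. It passed the FPKM limit only through DNBS_GR159897, and with no filter limma called 0 members in this comparison (1791 at an unadjusted p under 0.05). Its annotated locus was at 2.86, 10.6 and 12.5 FPKM in DNBS_GR159897 and 8.52 to 16.7 elsewhere. The locus named Snx9, a sorting nexin of endocytosis, was at 66.0, 19.4 and 16.5 FPKM against 2.19, 1.14 and 0 (3.92 ± 0.64, adjusted p = 0.0410), and the locus named Angptl6 was at 0.15, 1.96 and 0.17 FPKM against 5.84, 6.06 and 6.90 (-2.19 ± 0.43, adjusted p = 0.0495). Without DNBS_GR159897 replicate 1 or with a sex term 1 member passed, without DNBS_Vehicle replicate 1 or replicate 3 the count was 0 in limma, and without DNBS_GR159897 replicate 3 1017 did.

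GR159897 without DNBS, Saline_GR159897 against Saline_Vehicle, gave 0 called members in limma, with 83 members at an unadjusted p under 0.05, and a background of 0% (0 of 24255, 280 at an unadjusted p under 0.05). The smallest p-values belonged to loci named for mt-Cytb and mt-Tp, Nlgn1 and Prr14, each with adjusted p = 1. The mt-Cytb and mt-Tp locus, named for a mitochondrial cytochrome and a transfer RNA, was at 75.8, 62.4 and 34.2 FPKM in Saline_Vehicle and 0, 4.93 and 1.25 in Saline_GR159897. The interaction of DNBS and GR159897, which asks whether the DNBS change differed between the drug arms, also gave 0 called members in limma (761 at an unadjusted p under 0.05, background 0%, 0 of 24255 loci, of which 1221 had an unadjusted p under 0.05). The smallest p-values were at loci named Parva, Lamc1 and Serac1, with adjusted p of 0.255, 0.558 and 0.558. A difference in DNBS response between the drug arms was therefore not shown for any member.

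The last comparison set each member against the annotated locus of exactly the same gene name, for the 6629 members where that locus reached 1 FPKM in at least 3 libraries. Members were usually the lower of the pair. The member was above its annotated locus in 9.47, 13.7 and 6.14% of pairs in Saline_Vehicle, 22.4, 13.0 and 14.6% in DNBS_Vehicle, 2.26, 21.6 and 14.8% in Saline_GR159897, and 52.1, 42.1 and 21.01% in DNBS_GR159897. Only DNBS_GR159897 replicate 1 had the member above in the majority of pairs. The median log2 ratio was 0.07 in it and -1.71 to -0.27 in the others. The pairs held 2870 annotated loci, so these sums set 6629 members against fewer annotated loci. Members summed to 0.0523 times their annotated loci in Saline_GR159897 replicate 1 and to 4.22 times in DNBS_GR159897 replicate 1. Without the 8 highest members the values were 0.0302 and 2.04 times. In that last library the annotated loci of these pairs summed to 18263 FPKM, against 43983 to 73133 elsewhere.

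**Figure D5:**
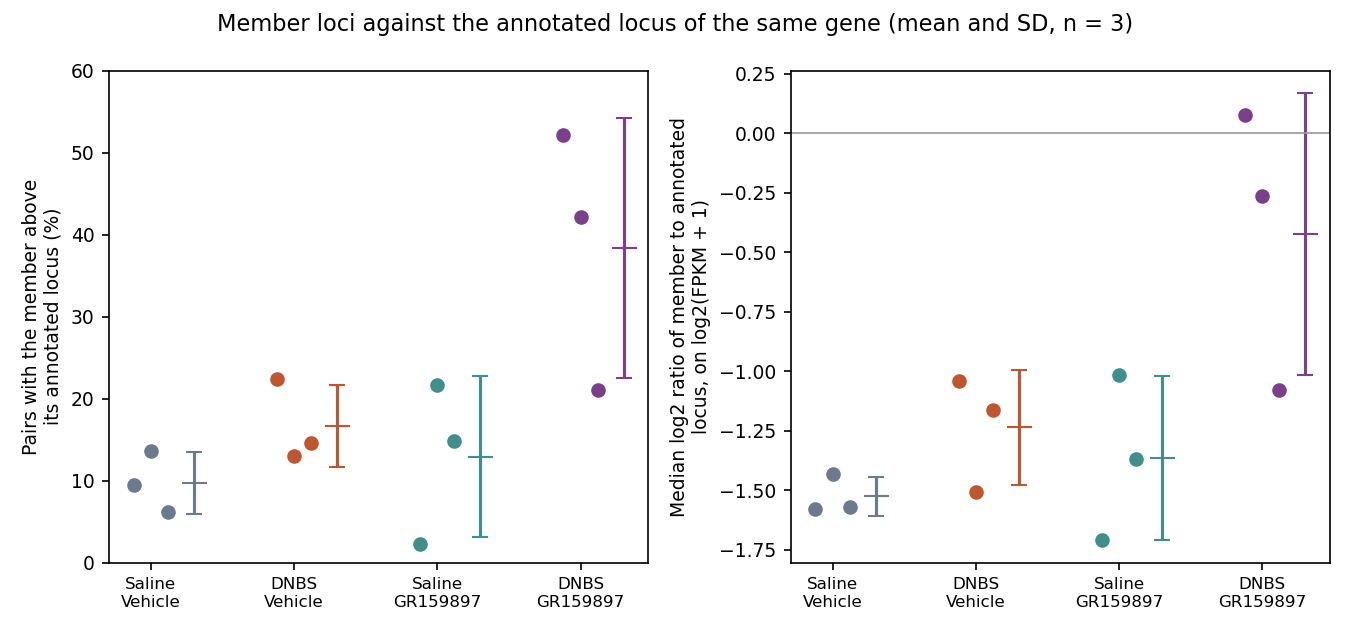
Left, percent of 6629 pairs in which the member is above the annotated locus of the same gene, and right, the median log2 ratio on log2(FPKM + 1), with 1 point per library and the mean with SD (n = 3) beside each group. DNBS_GR159897 spans 21.01 to 52.1% and the other groups stay at 22.4% or less.

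The ratio changed with DNBS over both drug arms for 225 members, 217 upward and 8 downward. That is 3.39% of 6629 against 2.15% of all pairs (287 of 13357, with 2.01% upward and 0.135% downward). Members of the same gene share 1 annotated locus, so the 225 are not all separate results. Without Saline_GR159897 replicate 1 the count was 16, without Saline_GR159897 replicate 3 it was 6, without DNBS_GR159897 replicate 1 191, without DNBS_GR159897 replicate 3 1321, and with a sex term 76. The Bnip3l locus, named for a mitophagy receptor, kept its call in the ratio under all 16 alternatives (3.96 ± 0.59, adjusted p = 0.00825). It was at 0 to 1.22 FPKM with saline and 0 to 5.95 with DNBS, while the annotated Bnip3l locus was at 20.4 to 59.7 FPKM with saline and 0.79 to 18.4 with DNBS, so the ratio moved mainly through the annotated locus. The Sspn locus gained on its annotated locus by 3.90 ± 0.73 (adjusted p = 0.0217), where the annotated locus was at 2.54 to 25.1 FPKM with saline and 0.47 to 7.10 with DNBS. Of the loci named Gpm6b, a glial membrane protein, 4 passed in the ratio, all set against the same annotated locus. The largest rise was 3.93 ± 0.82 (adjusted p = 0.0294, call lost in 8 of 16 alternatives). The annotated Gpm6b locus was at 53.4 to 168 FPKM with saline and 1.79 to 23.9 with DNBS. Glial markers as a list were lower with DNBS too, and their part was not tested.

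Of the ratios that fell, those of Il11 and Mrc1 were at loci of low level whose annotated locus was mostly higher with DNBS. For Il11, a cytokine, the member was at 0 to 1.28 FPKM with saline and 0 in all DNBS libraries, and the annotated locus at 0 to 0.45 and 1.39 to 6.73 FPKM (-2.20 ± 0.40, adjusted p = 0.0209). This Il11 member was above 0 in saline libraries alone and so passed the limit through the groups where it was high. For Mrc1, the mannose receptor of macrophages, the ratio of 1 member fell (MSTRG.50405, -2.14 ± 0.40, adjusted p = 0.0218). This locus was at 0 to 2.68 FPKM with saline and 0 to 1.19 with DNBS. The annotated locus was at 1.36 to 3.53 FPKM with DNBS, where 5 saline libraries were at 0.65 or less. Each other Mrc1 member had its highest level in a DNBS library, and none of these was called. MSTRG.50400 was at 0 to 1.31 FPKM with saline and 0 to 8.22 with DNBS, and MSTRG.50402 at 0 to 0.49 and 0 to 10.3. Within the vehicle arm 2 ratios passed, of Sgca and Sugct, or 0.0302% against 0.015% of all pairs (2 of 13357). Both members were listed at 0 in Saline_Vehicle, so no fold is given (adjusted p = 0.0133 and 0.0146), and their annotated loci were at 1.29 or more and 3.08 or more FPKM in each Saline_Vehicle library and at no more than 0.62 and 2.03 in DNBS_Vehicle. In the GR159897 arm 251 passed (247 upward; 3.79% against 2.24% of all pairs, 2.21% upward and 0.0299% downward), and the count was 13 without DNBS_GR159897 replicate 1. For DNBS_GR159897 against DNBS_Vehicle 14 passed, all upward (0.211% against 0.105%), and 0 without that library. For GR159897 without DNBS and for the interaction limma called 0 member ratios, with backgrounds of 0% and 98 and 565 members at an unadjusted p under 0.05.

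The members with the highest ratio to an annotated locus of at least 1 FPKM on average were named Gphn, Sspn, Jarid2, Cpsf2, Kcna1 and Spry2. Cpsf2, a subunit of the complex that cleaves messenger RNA ends, named a locus at 68.9 to 551 FPKM against 3.26 to 10.4 at its annotated locus, with the member above in all 12 libraries. Spry2, an inhibitor of growth factor signalling, named a locus at 7.72 to 21.1 FPKM with saline and 24.1 to 110 with DNBS, without overlap (1.81 ± 0.40, adjusted p = 0.0250), and lost its call in 6 of 21 alternatives. Its annotated locus was at 0 to 5.84 FPKM with saline and 1.34 to 25.6 with DNBS.

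Genes of the cell type and pathway lists held few members. In all, 110 members fell on 16 lists, and 3 were called for their own level, all higher in the average DNBS change, where 4.56% of all loci were called. Itgam and Nfkbiz also passed in the GR159897 arm, where 2.73% of all loci did. Of the 79 list members with a pair, 6 were called in the ratio, 4 named Gpm6b, 1 named Csrp1 and 1 named Mrc1. All 6 passed in the average DNBS change, where 2.15% of all pairs and 3.39% of member pairs did. Mrc1 also passed in the GR159897 arm, where 2.24% of all pairs did. The 4 named Gpm6b share 1 annotated locus, so they are not separate results. The 3 called for their level were named Itgam, an integrin of myeloid cells, Il1r2, a decoy receptor of interleukin 1, and Nfkbiz, a regulator of NF-kB. All 3 reached 1 FPKM in DNBS libraries alone and so passed the limit through the groups where they were high. Itgam was at 0 to 0.12 FPKM with saline, 4.50, 0 and 2.52 in DNBS_Vehicle and 8.90, 7.59 and 3.34 in DNBS_GR159897 (average change 2.11 ± 0.41, adjusted p = 0.0149), and its call was lost in 2 of 20 alternatives. Il1r2 changed by 2.13 ± 0.53 (adjusted p = 0.0380) and Nfkbiz by 1.48 ± 0.35 (adjusted p = 0.0338), with calls lost in 12 and 11 of 20. The markers of neutrophils, which hold Il1r2, summed to 0.63 to 1.64 FPKM in Saline_Vehicle, 1.72 to 29.8 in Saline_GR159897, 27.0 to 606 in DNBS_Vehicle and 57.3 to 267 in DNBS_GR159897 at annotated loci.

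Of 20 enteric glia markers 4 had members, 14 loci in all, among them loci named Gpm6b, Gfap and Erbb3, and 0 were called for their own level. Their median average DNBS change was 0.36, against 0.49 over all members and 0.15 over all loci tested. Their sum was 2.03 to 5.95 FPKM in Saline_Vehicle and 6.58 to 21.2 in DNBS_Vehicle, without overlap, and 0.12 to 14.5 in Saline_GR159897 and 8.17 to 26.4 in DNBS_GR159897, with overlap. Of 17 smooth muscle markers 9 had 16 members, led by Tpm1 (mean 68.8 FPKM), and 0 were called for their own level (median 0.45). Interstitial cells of Cajal, the pacemaker cells of the gut, gave 24 members from 3 markers, 17 of them named Ano1, and 0 were called for their own level (median 0.04). In the tachykinin list, which holds the receptor that GR159897 blocks, 1 gene of 6 had members, Tacr1 with 2 loci at no more than 4.14 FPKM, and neither was called for its level.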

How the data were processed

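Ribosome-bound RNA was measured in 12 libraries by SMART-seq v4 from 1 ng of RNA and paired-end Nextera libraries, per the labels' protocols. The authors deposited FPKM values per assembled locus. Tools listed in the submitters' processing notes, without roles, are StringTie 1.3, HISAT2 2.0, cutadapt 1.10 and FastQC 0.10.1. A genome build was not given in the sources used here, strands are not told apart and depth is unknown, so no counting interval is given.

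Members were taken by the rule in the report. Members and lists were chosen with earlier results of these data known. The 24255 loci past the same FPKM limit were fitted as log2(FPKM + 1) with limma 3.58.1 in R 4.3.3: 1 coefficient per group over 12 libraries, 8 residual degrees of freedom, trended robust prior, two-sided tests, Benjamini-Hochberg adjustment over all loci, threshold 0.05. A fold on this scale understates the change of low loci. Ratios used the annotated locus of the same name with the highest mean, where it reached 1 FPKM in at least 3 libraries and the other locus was above 0 in at least 3, over 13357 pairs. Shares were compared by exact permutation of libraries within arms. The labels do not say whether libraries of a group came from separate mice, so p-values measure the spread between libraries, and they name no batch or date. The annotated Gfap locus has blanks and left the fits. Named members were those of highest level, largest called change, highest ratio, most loci per gene or on a list. Methods were tested on simulated data. Positions are from GENCODE M21 through symbols, and 4090 of 4190 names matched. Python 3.11.15, pandas 2.3.3, numpy 2.4.6 and matplotlib 3.10.9 were used.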

Additional observations from a re-analysis of the deposited data

How the results depend on the processing

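Depth is unknown, and with 3 libraries a group the number of libraries limits what passes. The share of summed FPKM on named loci kept its direction under each alternative. Leaving out each library in turn, the DNBS difference in that share was 14.97 to 23.6 points (exact permutation p = 0.005 to 0.035). The log2 ratio of named to unnamed sums, with p of 0.37 to 0.93 in the exact permutation test, ran from -0.093 (without DNBS_Vehicle replicate 2) to 0.035 and changed sign without Saline_Vehicle replicate 2 (0.012), DNBS_Vehicle replicate 1 (0.017) or replicate 3 (0.024), Saline_GR159897 replicate 2 (0.035) or DNBS_GR159897 replicate 3 (0.024). Counts of called members moved more, and the cause was not tested. For DNBS_Vehicle against Saline_Vehicle, the count of 6 became 1 with a pseudocount of 5, 1 with no filter, 11 when 6 libraries had to reach 1 FPKM and 12 with only those 2 groups fitted. For DNBS_GR159897 against Saline_GR159897, 363 became 25 with a pseudocount of 0.1, 1 with no filter, 69 with the limit in 6 libraries, 105 with a sex term and 0 with only 2 groups. For DNBS_GR159897 against DNBS_Vehicle, 73 became 0 with a pseudocount of 0.1, no filter, the limit in 6 libraries or only 2 groups, 1 with a sex term or an equal FPKM sum, and 151 with equal medians of annotated loci. For the average DNBS change, 276 became 171 with a pseudocount of 5, 36 with no filter and 133 with a sex term. For the ratio, a pseudocount of 0.1 gave 6 calls for DNBS_Vehicle against Saline_Vehicle, 1 for Saline_GR159897 against Saline_Vehicle and 2 for the interaction. A sex term gave 55 for DNBS_GR159897 against Saline_GR159897, 0 for DNBS_GR159897 against DNBS_Vehicle and 76 for the average, and asking both loci to reach 1 FPKM in 3 libraries gave 25 for DNBS_GR159897 against DNBS_Vehicle. Leaving out each library in turn gave, in the order DNBS_Vehicle against Saline_Vehicle, DNBS_GR159897 against Saline_GR159897, DNBS_GR159897 against DNBS_Vehicle and average, 0 to 15, 1 to 2042, 0 to 1017 and 38 to 1426 members, and 0 to 4, 0 to 1675, 0 to 1076 and 6 to 1321 ratios, with 0 to 1 ratios for the interaction. The highest count of the last 3 came without DNBS_GR159897 replicate 3. Equal medians moved the median change of all loci from 0.19 to 0.37 for DNBS_GR159897 against Saline_GR159897 and from 0.15 to 0.28 for the average. No call of a named member that was followed through the alternatives reversed. Ndufa13, which was not called, ran from -0.69 to 0.14 for the average DNBS change.

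Whether the replicate number pairs the libraries is unknown. Deviations from the group means correlated at -0.12 to 0.22 for same-numbered libraries and at -0.27 to 0.25 for differently numbered ones. With 3 libraries a group these values cannot decide it. With a replicate block, 141 members and 143 ratios passed for DNBS_GR159897 against Saline_GR159897 and 0 and 0 for DNBS_GR159897 against DNBS_Vehicle, and the other counts stayed within 1.5 times. The DNBS difference in share had an exact permutation p = 0.03125 under the block, the smallest that test can give.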
